A study of Mus musculus with 6 samples.

Results

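Phase II conjugation enzymes attach a small polar group to drugs, steroids, bilirubin and reactive lipids, so that the product can leave the cell in bile or urine. Glutathione S-transferases (GST) add glutathione, UDP-glucuronosyltransferases (UGT) add glucuronic acid in the endoplasmic reticulum, and cytosolic sulfotransferases (SULT) add sulfate from the donor PAPS. Hepatocytes hold large amounts of all 3 families, and the nuclear receptors CAR and PXR, the aryl hydrocarbon receptor AHR and the stress factor NRF2 are known to regulate many of their genes. The genes described here are the protein-coding rows of the deposited table whose symbols begin with Gsta, Gstk, Gstm, Gsto, Gstp, Gstt, Gstz, Mgst, Ugt1, Ugt2, Ugt3 or Sult. Membership goes by symbol, but the set was proposed with earlier results of these data known. The genes number 65 of 25690 rows: 25 GST genes (3 of them the membrane-bound Mgst genes), 20 UGT genes and 20 SULT genes.

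The study sequenced RNA from mouse hepatic tissue, with 3 libraries of the wild type control and 3 of mice with a knockout of FTO in the liver. FTO is an RNA demethylase that removes methyl groups from N6-methyladenosine, and the comparison asks which hepatic transcripts differ when it is deleted. The sources used here do not state strain, age, sex, diet, the knockout allele or what drove the deletion. Replicates are numbered in the order of the samples and pair nothing. Nothing in the labels ties each library to an animal of its own, so the p-values cover only the spread among these 6 samples, and that spread may be technical.

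Levels are in FPKM, fragments scaled to transcript length and library size, which allows levels of different genes to be compared per length. Log2 changes are knockout minus wild type on log2(FPKM + 1), a scale that understates the change of low genes, and folds are ratios of mean FPKM. A gene was called when limma gave a Benjamini-Hochberg adjusted p under 0.05 over the 10405 genes whose mean reached 1 FPKM. Depth, inferred from the worth of 1 fragment, was 34140000 to 42530000 fragments per library. Mitochondrial transcripts held 23.2% to 30.3% of the FPKM sum. Fto was at 6.67, 6.02 and 6.40 FPKM in the wild type libraries 1 to 3, and at 1.79, 3.83 and 2.66 FPKM in knockout replicates 1, 2 and 3 (2.30-fold lower, SE 0.19 on the log2 scale, adjusted p 0.0386), so transcripts of the targeted gene were lower in all knockout libraries but not at 0. This call was lost in 5 of the 6 fits that leave out 1 library (held without knockout replicate 2), with adjusted p-values up to 0.147. The hepatocyte markers Apoa1, Ttr, Cps1, Ass1, Tat, Cyp2e1 and Hnf4a were at 64.6 FPKM or more in every library. A value of 0 was listed for albumin (Alb) in knockout replicate 3 and wild type replicate 1, which can be a failed estimate. No tested conjugation gene had such a value (0 of 46). Summed markers of Kupffer cells stood at 33.5 to 105.3 FPKM in wild type, against 82.1 to 145.6 FPKM in knockout (7 of 7 tested, 0 called), those of endothelium at 26.8 to 64.0 and 37.3 to 50.8 FPKM, and those of stellate cells at 64.3 to 92.7 and 59.4 to 88.2 FPKM. Red cell markers stood at 230.3 to 472.6 and 188.9 to 258.7 FPKM, and intestinal markers at 182.8 to 354.7 and 107.2 to 138.4 FPKM, with the defining genes Vil1 and Cdx2 under 1 FPKM in every library. Most of the intestinal sum was Fabp2, at 163.9, 169.5 and 343.1 FPKM in wild type, against 83.0, 110.3 and 116.3 FPKM in knockout. The means of Lgals4 (14.9 and 20.0 FPKM) and Vil1 (0.0411 and 0.148 FPKM) were higher in knockout. Pancreas markers stood at 21.1 to 23.1 and 28.0 to 43.6 FPKM, with 4 of 5 under 1 FPKM. All 4 adipocyte markers and 3 of 4 lymphocyte markers were under 1 FPKM in every library. Of 6 cholangiocyte markers, 5 were under 1 FPKM in every library. The part of these cells in the results was not tested, and in bulk tissue fewer cells of a type and less RNA per cell cannot be told apart.

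Knockout livers had less RNA of 5 conjugation genes. These were the glucuronosyltransferase genes Ugt1a5, Ugt1a2 and Ugt1a6a, the pi-class glutathione transferase gene Gstp3 and the sulfotransferase gene Sult2a7. Of the 65 genes 46 were tested. None were called higher (0 of 46, against 1.11% of all tested genes), 5 were called lower (10.9%, against 1.65% of all tested genes) and 41 were not called. At an unadjusted p under 0.05, 2 were higher and 17 were lower, beside 900 higher and 1043 lower of all 10405 genes. All 3 knockout libraries lay below all 3 wild type libraries for 17 of the 46 genes (37.0%, against 13.0% of all tested genes), and above them for 3 (against 11.5%). The log2 change was below 0 for 36 of the 46 genes (78.3%), against 50.3% of all tested genes. Its median was -0.26, against 0.00 over all tested genes. Since the set was proposed with earlier results known, these shares are descriptions and no test of the set was made. Ugt1a2 and Sult2a7 passed the minimum level only through wild type and Sult1e1 only through knockout, so these 3 had to differ once they were tested.

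**Figure D1:**
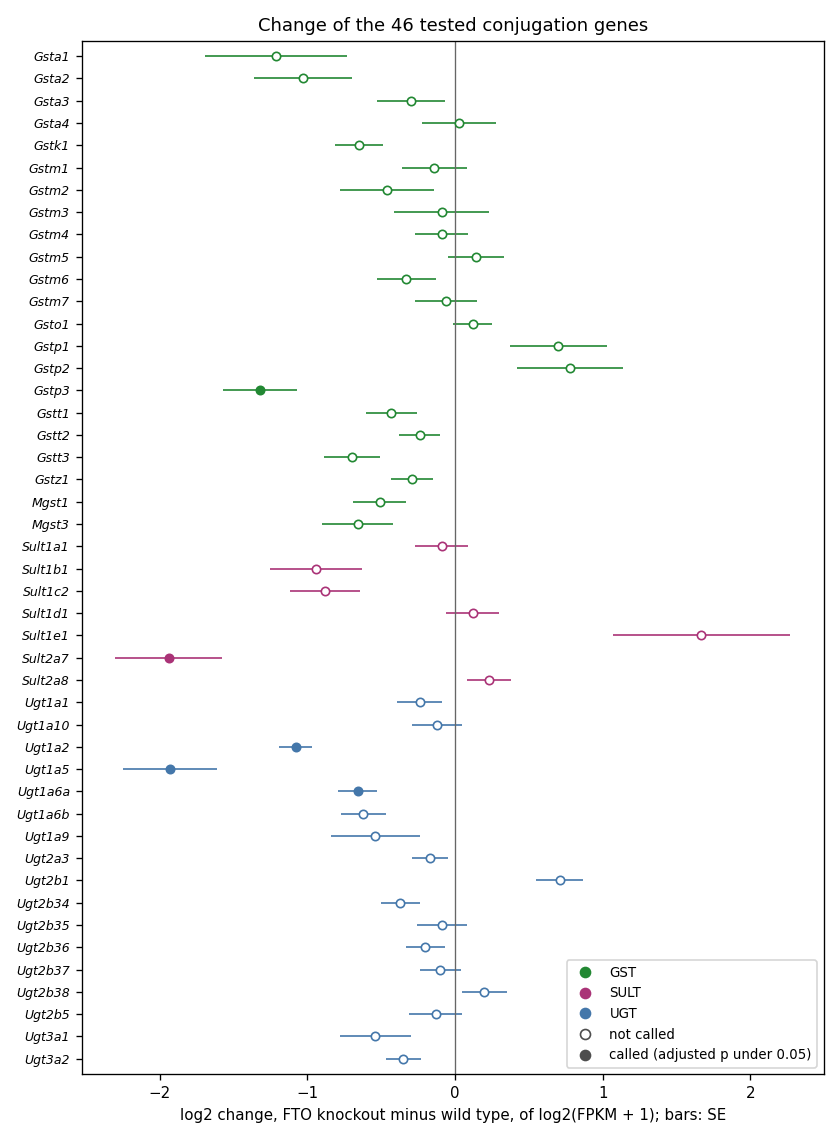
Log2 change (knockout minus wild type, horizontal axis) of each of the 46 tested genes with its SE. Filled points are the 5 called genes, all to the left of 0, and Sult1e1 stands farthest to the right with a wide SE.

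The promoters of the Ugt1a genes are shown first, because 3 of the 5 called genes lie in that cluster. A cluster of alternative first exons on chromosome 1 is spliced to exons that all its genes share, so each gene has a start and a promoter of its own while the rest of the transcript is common. The 250 bases before the RefSeq start are given 5′ to 3′ (plus strand, GRCm38.p6) for the 3 genes that fell and for Ugt1a1, the bilirubin-conjugating gene, which was not called. Capitals mark an AHR core motif (GCGTG) or a core of HNF1 sites (GTTAAT), read on both strands.

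Ugt1a5 (chr1:88165762-88166011): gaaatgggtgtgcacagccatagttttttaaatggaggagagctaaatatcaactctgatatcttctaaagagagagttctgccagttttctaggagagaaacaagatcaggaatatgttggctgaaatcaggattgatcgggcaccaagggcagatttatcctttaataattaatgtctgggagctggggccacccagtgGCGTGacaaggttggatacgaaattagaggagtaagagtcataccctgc
Ugt1a2 (chr1:88200361-88200610): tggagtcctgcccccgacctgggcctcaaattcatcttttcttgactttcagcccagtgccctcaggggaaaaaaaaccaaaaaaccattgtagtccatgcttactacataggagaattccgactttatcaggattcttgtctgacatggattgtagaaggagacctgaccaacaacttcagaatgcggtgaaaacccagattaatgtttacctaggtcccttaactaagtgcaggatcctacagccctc
Ugt1a6a (chr1:88134559-88134808): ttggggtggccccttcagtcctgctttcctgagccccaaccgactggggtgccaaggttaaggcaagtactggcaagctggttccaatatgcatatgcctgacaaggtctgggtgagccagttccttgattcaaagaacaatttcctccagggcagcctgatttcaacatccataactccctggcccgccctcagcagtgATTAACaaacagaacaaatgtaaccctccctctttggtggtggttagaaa
Ugt1a1 (chr1:88211709-88211958): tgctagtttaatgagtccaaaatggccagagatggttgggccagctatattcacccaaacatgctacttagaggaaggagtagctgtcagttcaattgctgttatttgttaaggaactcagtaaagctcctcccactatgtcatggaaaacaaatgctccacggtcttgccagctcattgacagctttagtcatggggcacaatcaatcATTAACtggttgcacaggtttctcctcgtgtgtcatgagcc

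The Ugt1a5 and Ugt1a2 windows were identical at 45.6% of aligned positions, close to the 43.1% to 48.9% of the other pairs among these 4 windows. Of the 65 genes 57 had a RefSeq promoter entry, with 69 starts in all. The core of HNF1 sites, a motif chosen after these sequences were seen, was found upstream of 14 of the 69 starts (20.3%), against 6.4% of 32851 starts in the RefSeq table. The AHR core motif was found at 12 starts (17.4% against 28.2%) and a core of NRF2 sites (TGACNNNGC) at 4 (5.8% against 10.2%). No 2 of these motifs overlap in the windows printed. A match is a description of these letters and not evidence of binding.

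Ugt1a5 had the largest decrease in the Ugt1a cluster by fold, and it fell in every knockout library. Its gene spans chromosome 1, 88166012 to 88218997 (mm10, plus strand). It was at 53.3, 50.8 and 53.3 FPKM in the wild type libraries in order of replicate, and at 6.95, 20.4 and 15.3 FPKM in knockout replicates 1, 2 and 3. The wild type libraries were close together and all knockout libraries lay far below them, knockout replicate 1 lowest. The mean fell 3.69-fold, from 52.5 ± 1.46 to 14.2 ± 6.78 FPKM (mean ± SD, n = 3 each), with a log2 change of -1.93 (SE 0.32) and an adjusted p of 0.0248. The call was lost without wild type replicate 1 (0.0520), wild type replicate 2 (0.0782) or knockout replicate 3 (0.0900), and when low genes were kept in the fit (0.0777).

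Ugt1a2, next to Ugt1a5 in the cluster (88200601 to 88218997), showed the smallest p of the family at a much lower level. It was at 2.73, 2.57 and 2.58 FPKM in the wild type libraries and at 0.531, 0.822 and 0.822 FPKM in the knockout libraries. The groups did not overlap and each was tight. The mean fell 3.62-fold, from 2.63 ± 0.0891 to 0.725 ± 0.168 FPKM (mean ± SD, n = 3 each), with a log2 change of -1.08 (SE 0.11) and an adjusted p of 0.00401. At the inferred depth this corresponds to 200 to 209 fragments per wild type library and 41 to 77 per knockout library. Without any single library the adjusted p was 0.0102 to 0.0227. Ugt1a2 passed the minimum level only through wild type. The leave-out fits kept the minimum level set on all 6 libraries, so they do not test that selection.

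Ugt1a6a (88134809 to 88218997), which with its neighbour Ugt1a6b encodes enzymes for small planar phenols, fell by less. It was at 79.1, 93.7 and 101.3 FPKM in wild type, against 52.6, 60.8 and 58.6 FPKM in knockout. The fall was 1.59-fold, from 91.4 ± 11.3 to 57.4 ± 4.25 FPKM (mean ± SD, n = 3 each), with a log2 change of -0.66 (SE 0.13) and an adjusted p of 0.0487. This call lay close to the threshold: it held without wild type replicate 1 (0.0381) and was lost without any other single library, with adjusted p-values of 0.194 and 0.0505 without wild type replicates 2 and 3 and 0.166, 0.0922 and 0.160 without knockout replicates 1, 2 and 3. When low genes were kept it was 0.0713. Ugt1a6b was at 51.1, 53.3 and 61.1 FPKM in wild type, against 37.3, 40.1 and 29.5 FPKM in knockout, without overlap but not called (log2 change -0.62, SE 0.15, adjusted p 0.0725).

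The other Ugt1a genes were not called. Ugt1a1, the most abundant, was at 126.1, 129.4 and 105.4 FPKM in wild type, against 87.8, 119.9 and 99.8 FPKM in knockout, and the groups overlapped (adjusted p 0.468). Ugt1a9 ran from 23.2 to 56.4 FPKM in wild type and from 21.2 to 31.2 FPKM in knockout, also with overlap. Ugt1a10 was at 1.14 to 2.32 FPKM, and Ugt1a7c and Ugt1a8 were below the minimum for a test. Summed over its 9 genes the cluster stood at 338, 370 and 383 FPKM in wild type, against 209, 268 and 237 FPKM in knockout, so the groups of the sum did not overlap. Within that sum the share of Ugt1a5 was 14.5% ± 1.16 in wild type and 5.8% ± 2.22 in knockout, and the share of Ugt1a1 was 33.3% ± 5.12 and 42.9% ± 1.62 (SD, n = 3 each). The shares of Ugt1a6a (25.1% and 24.2%) and Ugt1a6b (15.1% and 15.1%) were nearly equal.

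Reads in the shared exons cannot be assigned to 1 Ugt1a gene by sequence, and the sources used here do not state how they were assigned. In the GENCODE transcripts, 64.0% of the 50-base windows of Ugt1a5 also occur in Ugt1a2, 58.2% of those of Ugt1a1 occur in Ugt1a6a, and 79.6% of those of Ugt1a6b occur in Ugt1a6a. Levels of single Ugt1a genes are therefore uncertain. When the 9 rows were summed before the fit, the log2 change of the cluster was -0.62 (SE 0.14) with an adjusted p of 0.0617, which is not called.

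**Figure D2:**
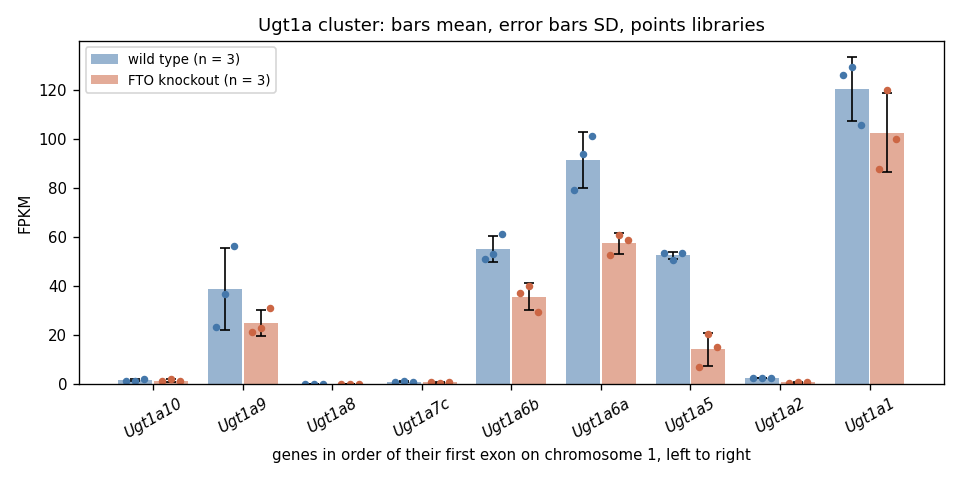
FPKM of the 9 Ugt1a genes in wild type (blue) and knockout (orange), as means with SD and single libraries, ordered by the position of the first exon. Ugt1a5 shows the widest gap between groups, while the points of Ugt1a1 and Ugt1a9 overlap.

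Ugt2 genes on chromosome 5 act on steroids, bile acids and drugs and supplied most UGT RNA, and none of the 8 tested was called. Ugt2b1 was the UGT gene with the clearest higher values in knockout, at 177.4, 177.4 and 138.2 FPKM in wild type, against 299.2, 277.5 and 231.8 FPKM in knockout. All knockout libraries lay above all wild type libraries, and no 50-base window of its transcripts occurs in another gene, yet it missed the threshold (1.64-fold, log2 change 0.71, SE 0.16, adjusted p 0.0614). The most abundant member, Ugt2b36, was at 507, 576 and 552 FPKM and at 503, 498 and 427 FPKM, which did not overlap by a small margin (adjusted p 0.468). Ugt2b5 was at 542, 528 and 432 FPKM in wild type, against 564, 427 and 389 FPKM in knockout, with overlap.

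Ugt2b34 was at 148.4, 143.5 and 123.7 FPKM in wild type, against 119.5, 103.3 and 97.4 FPKM in knockout (log2 change -0.37, SE 0.13, adjusted p 0.193). Ugt2a3 was at 129.8, 145.5 and 147.2 FPKM and at 121.7, 132.8 and 119.6 FPKM, with overlap. Summed over its genes, Ugt2 stood at 1604 ± 97.1 FPKM in wild type, against 1558 ± 190.5 FPKM in knockout (SD, n = 3 each), so the difference was smaller than either SD. Ugt2b5 and Ugt2b38 share 34.8% of the 50-base windows of Ugt2b5, so the split between them is uncertain.

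Ugt3 genes use other UDP sugars than glucuronic acid. Ugt3a2 was at 119.6, 125.3 and 111.5 FPKM in wild type, against 82.5, 96.7 and 100.5 FPKM in knockout (log2 change -0.35, SE 0.12, adjusted p 0.191). Ugt3a1 was at 72.9, 80.2 and 72.7 FPKM in wild type, against 33.7, 63.6 and 63.8 FPKM in knockout (adjusted p 0.290). Neither overlapped and neither was called. Knockout replicate 1 was the lowest library for both.

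Among glutathione transferases the only called gene was Gstp3, of the pi class (chromosome 19, 4057477 to 4059569). It was at 22.8, 25.0 and 46.5 FPKM in wild type, against 10.5, 12.2 and 11.3 FPKM in knockout. The knockout libraries were tight and all lay below wild type, whose replicate 3 was far above the other two. The mean fell 2.77-fold, from 31.4 ± 13.1 to 11.4 ± 0.872 FPKM (mean ± SD, n = 3 each), with a log2 change of -1.32 (SE 0.25) and an adjusted p of 0.0385. The call held without wild type replicate 1 or 3 and was lost without wild type replicate 2 (0.0759), knockout replicate 1 (0.132), 2 (0.0851) or 3 (0.148), and when low genes were kept in the fit (0.0963).

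The other pi-class genes were not called, and their values were higher in some knockout libraries. Gstp1, the main pi-class transferase of mouse liver, was at 1230, 1198 and 1357 FPKM in wild type, against 3501, 1253 and 1939 FPKM in knockout (log2 change 0.70, SE 0.33, adjusted p 0.3197). Gstp2 was at 636, 593 and 631 FPKM and at 1945, 638 and 966 FPKM (log2 change 0.78, SE 0.36, adjusted p 0.3001). Knockout replicate 1 was high for both, knockout replicate 2 stood near the wild type level, and knockout replicate 3 lay between them. The groups overlapped for Gstp1 and were separate by a small margin for Gstp2. The wide spread within knockout came with no call for either gene. Gstp1 and Gstp2 cannot be fully separated, since 49.1% of the 50-base windows of Gstp2 occur in Gstp1, while no window of Gstp3 occurs in another gene.

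**Figure D3:**
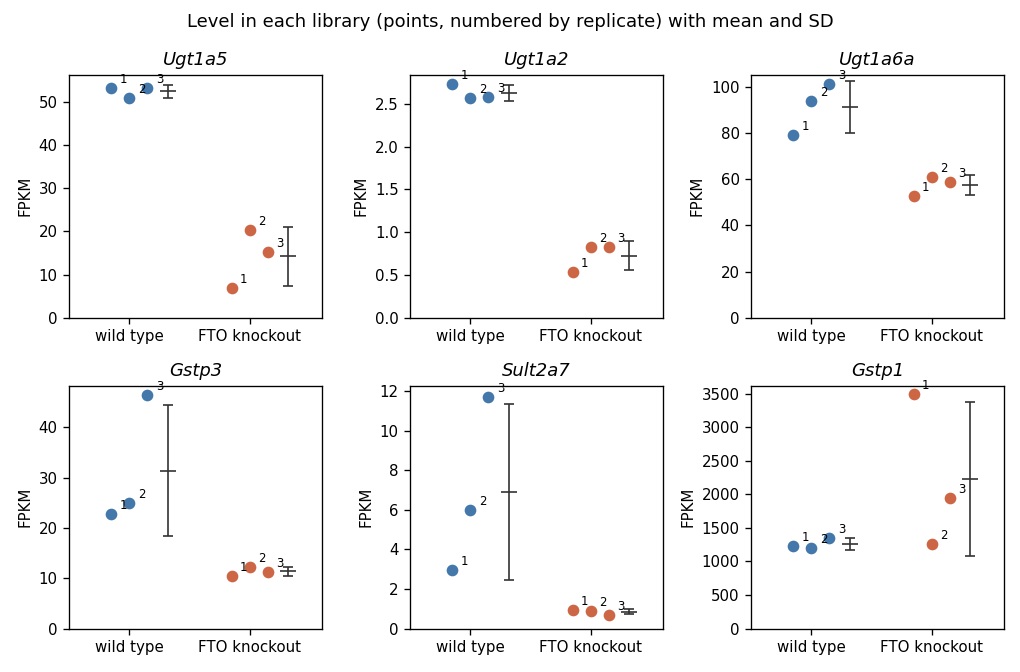
FPKM in each library (points, numbered by replicate) with mean and SD for the 5 called genes and, last, Gstp1. In the called genes every knockout point lies below every wild type point, and for Gstp1 knockout replicate 1 stands above all others at 3501 FPKM.

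Mgst1, a membrane-bound transferase of the endoplasmic reticulum and the outer mitochondrial membrane, was by far the most abundant conjugation gene. It was at 8097, 9474 and 12265 FPKM in wild type, against 6663, 7040 and 6971 FPKM in knockout. All knockout libraries were lower and close together, but the wild type spread was wide and the gene was not called (1.44-fold lower, log2 change -0.51, SE 0.18, adjusted p 0.183). Its share of the summed FPKM of all 65 genes was 46.1%, 47.7% and 49.4% in wild type and 33.3%, 41.5% and 41.4% in knockout. Mgst3 was at 11.3, 14.2 and 24.3 FPKM and at 9.497, 10.33 and 9.091 FPKM (adjusted p 0.202), with the same order of groups.

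The mitochondrial and peroxisomal transferase gene Gstk1 was at 177.8, 216.8 and 264.2 FPKM in wild type, against 135.7, 138.7 and 140.0 FPKM in knockout. The knockout libraries differed by little and all lay below wild type (1.59-fold, log2 change -0.65, SE 0.16, adjusted p 0.0812). It was called without wild type replicate 1 (0.0408) and after quantile normalization (0.0241). Gstt1, of the theta class, was at 242, 267 and 369 FPKM in wild type, against 207, 218 and 214 FPKM in knockout (adjusted p 0.226). Gstt3 was at 50.1, 60.4 and 74.0 FPKM and at 33.9, 46.6 and 32.2 FPKM (adjusted p 0.109). Both theta-class genes had groups that did not overlap, without a call. Gstz1, the maleylacetoacetate isomerase of tyrosine breakdown, was at 462, 538 and 588 FPKM and at 407, 464 and 424 FPKM, where the groups overlapped.

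Of the alpha class, which conjugates lipid peroxidation products, Gsta3 was the most abundant. It was at 1699, 2138 and 3055 FPKM in wild type, against 1802, 2078 and 1591 FPKM in knockout, with overlap. Gsta2 was at 55.3, 116.9 and 146.0 FPKM in wild type, against 55.1, 47.4 and 41.3 FPKM in knockout, so wild type replicate 1 lay just above the knockout libraries (log2 change -1.03, SE 0.33, adjusted p 0.155). It was called without wild type replicate 1 (adjusted p 0.00965). Of the 50-base windows of Gsta2, 49.8% occur in another gene. Gsta4 was at 83.0, 111.9 and 162.9 FPKM in wild type, against 142.5, 107.5 and 105.2 FPKM in knockout, with overlap.

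The 7 mu-class genes on chromosome 3 had overlapping groups throughout, and none was called. Gstm1 was at 1315, 1384 and 2086 FPKM in wild type, against 1721, 1275 and 1284 FPKM in knockout. Gstm2 was at 85.9, 114.7 and 192.6 FPKM and at 79.6, 125.8 and 72.4 FPKM. Gstm3 was at 67.6, 94.3 and 177.3 FPKM and at 111.4, 104.7 and 80.9 FPKM. In each of these 3 genes wild type replicate 3 was the highest library. Gsto1, of the omega class, was at 76.8, 78.4 and 88.4 FPKM and at 101.5, 81.8 and 83.1 FPKM, and overlapped too.

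Wild type replicate 3 carried high GST levels in FPKM. It was the highest wild type library for 20 of the 22 tested GST genes (90.9%), for 5 of 7 SULT genes and for 6 of 17 UGT genes, against 47.8% of all tested genes. The median difference of the 46 tested genes from their wild type mean was -0.19, -0.01 and 0.16 on the log2 scale for the wild type libraries in order of replicate, and -0.39, -0.16 and -0.35 for the knockout libraries. Without wild type replicate 3 the median log2 change of the 46 genes was -0.19 and 4 were called lower, all of them among the 5 above. Summed markers of hepatocytes, cholangiocytes, Kupffer cells, endothelium, stellate cells, lymphocytes, red cells and intestine were also highest in wild type replicate 3 among the wild type libraries. Those of pancreas and adipocytes were highest in wild type replicate 2. The part of these cells in the GST levels was not tested. The FPKM sum over all genes was largest in that library too (1076602, against 843847 to 902782 in the others). Without mitochondrial transcripts, the conjugation genes together held 2.98%, 3.06% and 3.0% of the sum in the wild type libraries in order of replicate. In the knockout libraries they held 2.91%, 2.62% and 2.63%. Albumin adds nothing to the sums of knockout replicate 3 and wild type replicate 1, because Alb has a value of 0 there. It adds 25046 to 28916 FPKM to each of the other sums. Where the Alb estimate failed the share is too high, so these shares cannot show whether the groups are separate. The part of the difference in the FPKM sum in the GST levels was not tested.

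**Figure D4:**
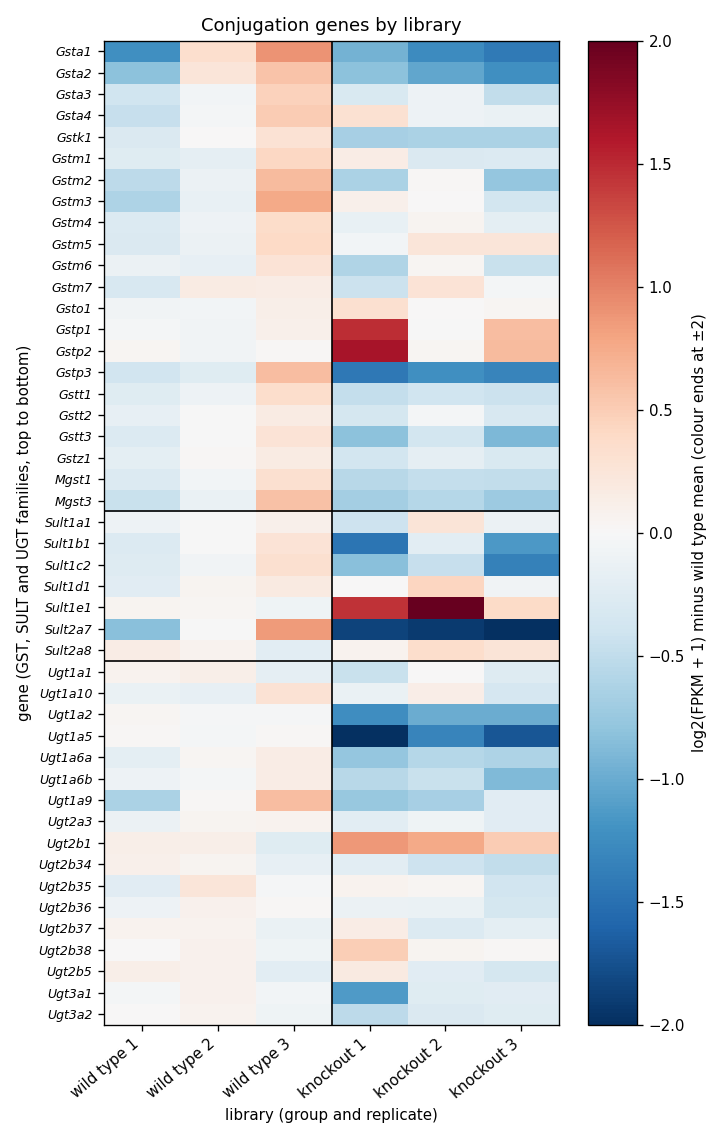
Log2(FPKM + 1) of the 46 tested genes in each library minus the wild type mean, as colours. Most GST rows are red in wild type replicate 3, Gstp1 and Gstp2 are red mainly in knockout replicate 1, and Ugt1a2, Ugt1a5 and Sult2a7 are blue in all knockout libraries.

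Sult2a7 was the called sulfotransferase gene, in the class that acts on steroids and bile acids (chromosome 7, 14465051 to 14494230). It was at 2.96, 5.99 and 11.7 FPKM in wild type, against 0.948, 0.884 and 0.705 FPKM in knockout. Wild type libraries differed widely among themselves, and all lay above the tight knockout libraries. The mean fell 8.15-fold, from 6.89 ± 4.45 to 0.846 ± 0.126 FPKM (mean ± SD, n = 3 each), with a log2 change of -1.94 (SE 0.36) and an adjusted p of 0.0385. The call held without wild type replicate 1 or 3. It was lost without wild type replicate 2 (0.114) or knockout replicate 1 (0.122), 2 (0.0932) or 3 (0.153), and when low genes were kept in the fit (0.104). Like Ugt1a2, Sult2a7 passed the minimum level only through wild type.

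Its neighbour Sult2a8, the most abundant SULT gene, was not called. Sult2a8 was at 501, 473 and 391 FPKM in wild type, against 475, 578 and 539 FPKM in knockout, with overlap (log2 change 0.23, SE 0.15, adjusted p 0.468). Sult2a1 to Sult2a6, of which Sult2a1 is known as a female-predominant gene in mouse liver, were at 0.102 FPKM or less in every library and were not tested. No 50-base window of Sult2a7 occurs in another gene, so these copies do not share sequence of that length with it.

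The estrogen sulfotransferase gene Sult1e1 had the largest positive log2 change and the least even one. It was at 0.336, 0.318 and 0.204 FPKM in wild type, against 2.51, 10.7 and 0.672 FPKM in knockout. Every knockout library was higher, but the values within knockout differed by more than the gap from wild type to the lowest of them, and the gene was not called (log2 change 1.67, SE 0.60, adjusted p 0.192). Sult1c2 was at 3.503, 4.154 and 5.762 FPKM in wild type, against 2.03, 2.90 and 1.12 FPKM in knockout, without overlap (log2 change -0.88, SE 0.24, adjusted p 0.106). The phenol sulfotransferase gene Sult1a1 was at 223, 237 and 256 FPKM and at 180, 284 and 220 FPKM, where the groups overlapped.

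The remaining 13 tested genes were Gsta1, Gstm4, Gstm5, Gstm6, Gstm7, Gstt2, Sult1b1, Sult1d1, Ugt1a9, Ugt1a10, Ugt2b35, Ugt2b37 and Ugt2b38. Their log2 changes ran from -1.21 (Gsta1) to 0.20 (Ugt2b38), with adjusted p-values of 0.163 to 0.915. The 19 genes that were not tested stayed at 1.42 FPKM or less in every library, and 3 of them, Sult1c1, Sult2a3 and Sult6b2, were listed at 0 throughout. At the minimum of 1 FPKM the nearest gene below was Ugt1a7c with a mean of 0.952 FPKM, and the nearest above was Ugt1a10 with 1.64 FPKM. Sult3a1, known as female-predominant in mouse liver, was at 0.130, 0.154 and 0.353 FPKM in wild type, at 0.0494 FPKM in knockout replicate 2 and listed at 0 in knockout replicates 1 and 3. Mgst2, a microsomal transferase, was listed at 0 in wild type replicates 1 and 2 and was at 0.188 FPKM in wild type replicate 3 and 0.758, 0.598 and 0.227 FPKM in knockout.

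The summed FPKM of all 65 genes was 17552, 19865 and 24815 in wild type and 19998, 16964 and 16849 in knockout, with overlap between groups. GST genes held 85.6% of it in wild type and 84.2% in knockout. Summed UGT levels were 2161 ± 101 and 1942 ± 156 FPKM, and summed SULT levels were 833 ± 19.9 and 887 ± 134 FPKM (SD, n = 3 each), both with overlap. The pi class supplied 9.22% of the sum in wild type and 19.1% in knockout, where Gstp1 and Gstp2 were high in knockout replicates 1 and 3.

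Among genes that supply the donors of the conjugation reactions 1 was called, while 1.11% of all tested genes were called higher and 1.65% lower. Of 7 genes that make, move or break down the sulfate donor, 1 rose: Papss1, a PAPS synthase gene, went from 1.79 ± 0.0792 to 3.43 ± 0.590 FPKM (mean ± SD, n = 3 each), with a log2 change of 0.66 and an adjusted p of 0.0378. Its larger partner in liver, Papss2, was at 33.7 ± 4.43 and 25.0 ± 5.91 FPKM and was not called. Of 11 glutathione supply genes (median log2 change -0.01) and 6 genes of UDP-glucuronic acid supply (median -0.10) none were called by limma, and at an unadjusted p under 0.05 these lists held 3 and 0 lower genes and no higher one. All 10405 tested genes held 1043 lower and 900 higher ones at that level. The UDP-glucose dehydrogenase gene Ugdh was at 108 ± 17.9 and 90.3 ± 23.3 FPKM. Gclc, the catalytic subunit of the glutathione-making ligase, was named after its values were seen. It was at 93.7, 98.9 and 77.6 FPKM in wild type, against 64.1, 46.2 and 37.0 FPKM in knockout, without overlap (adjusted p 0.0694).

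Of 16 tested genes of methyl, acyl and amino acid conjugation 1 fell, the acyl-CoA synthetase gene Acsm3, from 58.9 ± 4.34 to 38.1 ± 3.29 FPKM (mean ± SD, n = 3 each), with a log2 change of -0.62 and an adjusted p of 0.0409. Of 8 export genes 1 was called lower, Abcc2, the canalicular pump for glucuronide and glutathione conjugates. It was at 60.3, 64.1 and 67.7 FPKM in wild type, against 35.1, 44.2 and 41.0 FPKM in knockout (log2 change -0.67, adjusted p 0.0385). Over all tested genes 1.65% were called lower. Abcc3, named after its values were seen, was at 65.6, 62.6 and 35.7 FPKM in wild type, against 28.15, 22.3 and 19.1 FPKM in knockout. It was not called (log2 change -1.17, adjusted p 0.0542). Abcg2 was lower without overlap as well (adjusted p 0.119). Without overlap, 3 of the 8 export genes were lower (against 13.0% of all tested genes) and 0 higher (against 11.5%). None of 7 hydrolase genes were called. These were Gusb, the arylsulfatase genes Arsa, Arsb, Arsg and Arsk, and the epoxide hydrolase genes Ephx1 and Ephx2. All 7 had lower means on the log2 scale (against 50.3% of all tested genes), with changes of -0.48 (Ephx1) to -0.01 (Arsk). None of 3 relatives of the GST and sulfotransferase families outside the chosen names were called. At an unadjusted p under 0.05, 3 of the export genes were lower and 0 higher. At that level 3 of the hydrolase genes (Ephx1, Arsa and Arsb) were lower and 1 of the relatives was higher. All 10405 tested genes held 1043 lower and 900 higher ones. The calls of Papss1, Acsm3 and Abcc2 each held when some single library was left out (2, 1 and 1 of 6) and were lost otherwise, with adjusted p-values up to 0.145, 0.142 and 0.153.

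Of 18 tested regulators limma called none, and the unadjusted p was under 0.05 for 2 higher and 2 lower genes. For comparison with each list below, all 10405 tested genes held 900 higher and 1043 lower genes at that level. The CAR gene Nr1i3 was at 123.4 ± 3.19 FPKM in wild type, against 103 ± 29.0 FPKM in knockout, and Hnf4a at 71.8 ± 6.34 and 89.7 ± 10.4 FPKM (SD, n = 3 each). The PXR gene Nr1i2 (29.4 ± 3.69 and 19.9 ± 1.87 FPKM, adjusted p 0.0774) and the NRF2 gene Nfe2l2 (45.0 ± 5.61 and 32.5 ± 5.10 FPKM, adjusted p 0.164) had lower values without overlap, and both were named after their values were seen. Bcl6, also named after its values were seen, was higher without overlap (7.52 ± 3.11 and 17.8 ± 3.60 FPKM, log2 change 1.20, adjusted p 0.0827). Hnf4a was higher without overlap as well (adjusted p 0.258). Of the 18 regulators, 2 were lower and 2 higher without overlap, against 13.0% and 11.5% of all tested genes. Of 14 phase I genes taken as CAR and PXR targets 4 were called, all lower (against 1.65% of all tested genes): Cyp2b9, Cyp2b13, Cyp3a25 and Aldh1a7. Cyp2b9 and Cyp2b13 passed the minimum level only through wild type (knockout means 0.610 and 0.0370 FPKM), so both had to be lower once tested. Their log2 changes were -4.88, -1.93, -0.68 and -0.72, and the median of the list was -0.38, with 7 lower and 0 higher genes whose unadjusted p was under 0.05. Cyp3a11, the most abundant of the list, was at 1065 ± 63.2 and 1026 ± 213 FPKM. Of 13 NRF2 targets outside the GST family 1 fell (against 1.65% of all tested genes), the carboxylesterase gene Ces1g (log2 change -2.33). The median of that list was -0.48, with 9 lower and 0 higher genes at an unadjusted p under 0.05. Of 4 AHR targets none were called, with a median of 0.11 and 1 lower gene at an unadjusted p under 0.05. With a single library left out, the call of Cyp2b9 held in 6 of 6 fits and that of Ces1g in 5 of 6, where it was lost without knockout replicate 3 (0.0525). The calls of Cyp2b13, Aldh1a7 and Cyp3a25 held in 2, 2 and 1. These fits kept the minimum level set on all 6 libraries, so for Cyp2b9 and Cyp2b13 they do not test that selection.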

How the data were processed

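The deposited table holds FPKM per Ensembl gene, with the unit read from the values. The submitters' processing notes name TopHat2 2.1.0, HTSeq, Cufflinks 2.2.1 and mm10 without their roles, and do not state the annotation release. GENCODE M21 (GRCm38) gave symbols, gene types and coordinates for 24807 of 25690 rows. Of the 67 annotated genes of these names, Sult5a1 and Ugt2a1 were not analysed here. limma 3.58.1 in R 4.3.3 (lmFit, eBayes with trend, two-sided) was fitted on log2(FPKM + 1) of all 6 libraries for 10405 genes, after the script was tested on simulated data. The groups are the genotype labels. An exact permutation of 3 against 3 libraries cannot go below 0.1, so none is given.

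Depth was inferred from 49 to 60 values per library among single-transcript genes of 3000 to 8000 bases, read as 1 fragment where this gave 25000000 to 50000000 fragments. Intervals from counts are not given, since counts were not recovered. Shared windows are 50-base stretches of GENCODE transcripts found in a transcript of another gene. Promoters come from RefSeq. Genes, lists and settings were chosen with earlier results of these data known. Values in every library are given for called genes, for genes of at least 100 FPKM, for the most abundant gene of each tested class, and for genes without overlap and a log2 change of at least 0.5. Of other lists, called genes and up to 2 abundant ones are named, with some further genes.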

Additional observations from a re-analysis of the deposited data

How the results depend on the processing

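Of the 5 lower genes, 5 were called again with median ratio size factors, a pseudocount of 0.1 and robust empirical Bayes, and with quantile normalization, which added Gstk1 and gave 180 higher genes overall. With no filter on low values 1 conjugation gene (Ugt1a2) and 93 genes in all were lower. With rows summed by gene group 0 conjugation genes were called: the sums of Ugt1a, of Gsta1 and Gsta2, of Gstp1 to Gstp3 and of Sult2a had adjusted p-values of 0.0617, 0.176, 0.323 and 0.4999, and summed Sult3a stayed under the minimum level. Gstp3 and Sult2a7 share no 50-base window with another gene, so they are not near-identical copies, and these sums pool them with the far more abundant Gstp1, Gstp2 and Sult2a8. Library weights, whose estimate did not converge and gave wild type replicate 2 a weight of 37.34 and the other libraries 0.208 to 0.855, called 4 conjugation genes higher and 21 lower, and 1536 and 1442 genes in all. Leaving out each library in turn gave 1 to 7 lower and 0 higher conjugation genes, and 38 to 266 higher and 39 to 209 lower genes in all. The 7 without wild type replicate 1 share 4 with the 5 reported and add Gsta1, Gsta2 and Gstk1. Ugt1a2 was called in each leave-out fit, though these fits kept the minimum level that it passed only through wild type. The median log2 change of the conjugation genes stayed below 0 in all 13 alternatives. Signs were followed for the 33 tested conjugation genes given with values in every library, and turned for 4 of them, none called. With 1 library left out, Gsta4 took values of -0.20 (no wild type replicate 1) to 0.28, and -0.11 with no knockout replicate 1. Gstm1 ran from -0.29 to 0.07 (without wild type replicate 3). Gstm3 ran from -0.40 to 0.29 (without wild type replicate 3), with 0.05 without knockout replicate 3 and 0.02 with library weights. Sult1a1 ran from -0.26 to 0.07 (without knockout replicate 1). Summing and the filter change the genes tested, and the leave-out fits have fewer libraries. The cause of the differences between settings was not tested. At the inferred depth a transcript of 2 kilobases at 1 FPKM corresponds to 68 fragments.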
